A study of Ovis aries with 36 samples.

Results

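The genes described here varied widely between hypothalamus libraries while staying within a narrower range in the same rams' pineal gland and pars tuberalis. Of 26478 gene IDs, 280 met the rule. Levels are counts per 1000000 counts of the library (CPM), and the rule added 0.1 CPM to each value. A member had a hypothalamus median of at least 10 CPM, and its highest hypothalamus library was at least 5 times its lowest. The same ratio was below 4 in each other tissue. The hypothalamus median was below 6 times each other median, each other median was below 4 times the hypothalamus median, all medians were below 1000 CPM, and the highest median exceeded the lowest by more than 15%. The rule used the measured values, so the spread of the members is a description and carries no test.

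The 12 adult Rasa Aragonesa rams each gave 1 messenger RNA library from each of these tissues. Animals 1 to 6 were sexually active and animals 7 to 12 were not active, here called inactive, and no treatment is named for any of them. The 36 libraries thus form 6 groups of 6. How the blocks were dissected and how behaviour was scored are not stated in the sources used here. Library depth, counted in units of 1000000 counts, was 19.25 to 44.28 for hypothalamus, 22.56 to 35.44 for pars tuberalis and 25.24 to 72.95 for pineal libraries. The smallest count of any member in any hypothalamus library was 62, and the median over members of their lowest count was 373. The part of counting noise in the range was not tested.

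The hypothalamus is a mosaic of small nuclei with different neurons, set among glia, vessels and the lining of the ventricle, and it drives reproduction through neurons that release gonadotropin-releasing hormone. The pineal gland makes melatonin at night, and the pars tuberalis is a region of the pituitary that responds to it. A bulk library averages over all cells of a block, so fewer cells of a type and less RNA per cell cannot be told apart. The count table does not pair IDs with names, and 0 of the 26478 IDs matched the reference gene table, so genes are given by ID and no function or sequence is stated.

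Among the 10593 genes with a hypothalamus median of at least 10 CPM, 1076 (10.2%) had a highest-to-lowest ratio of at least 5. The ceiling on the pars tuberalis left 564 of these, the ceiling on the pineal gland left 405, and the limits on medians left 280. With the tissues exchanged, the same rule found 118 genes for the pars tuberalis and 23 for the pineal gland. Over all genes at 10 CPM or more in a tissue, the median ratio was 2.27 for hypothalamus, 2.08 for pars tuberalis and 1.72 for pineal libraries. A wider spread between libraries was therefore a general property of the hypothalamus set, beyond the members.

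The members' hypothalamus ratio ran from 5 to 43.7 with a median of 6.07. There were 132 members between 5 and 6, 119 between 6 and 10, and 29 at 10 or more. Just inside the limit stood genes at 5.009 and 5.022, and just outside it genes at 4.973, 4.988 and 4.992. A further 304 genes that met all other limits had a ratio from 4 to below 5, so the limit divides a continuous range. The members' pars tuberalis ratio had a median of 2.74 (1.31 to 3.997) and their pineal ratio one of 2.36 (1.24 to 3.999). Their SD over the 12 animals was a median of 55.8% of the mean for hypothalamus libraries, 26.8% for pars tuberalis and 26.8% for pineal libraries. Hypothalamus medians ran from 9.92 to 680 CPM (median 31.5). The highest of the 3 tissue medians was that of the hypothalamus for 88 members, the pars tuberalis for 114 and the pineal gland for 78.

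A few animals supplied most of the extremes. The library of active animal 2 was the highest for 70 members, inactive animal 10 for 55, inactive animal 12 for 50, active animal 6 for 35 and active animal 4 for 34. Animal 10 was the lowest for 105 members, animal 2 for 55, animal 12 for 48 and animal 6 for 25. For 206 of the 280 members (73.6%) both ends of the range lay in these 5 libraries. The most frequent pair was animal 2 highest and animal 10 lowest, in 45 members. Animals 9 and 11 were the highest for 0 members, and animals 1 and 3 were the lowest for 0.

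**Figure D1:**
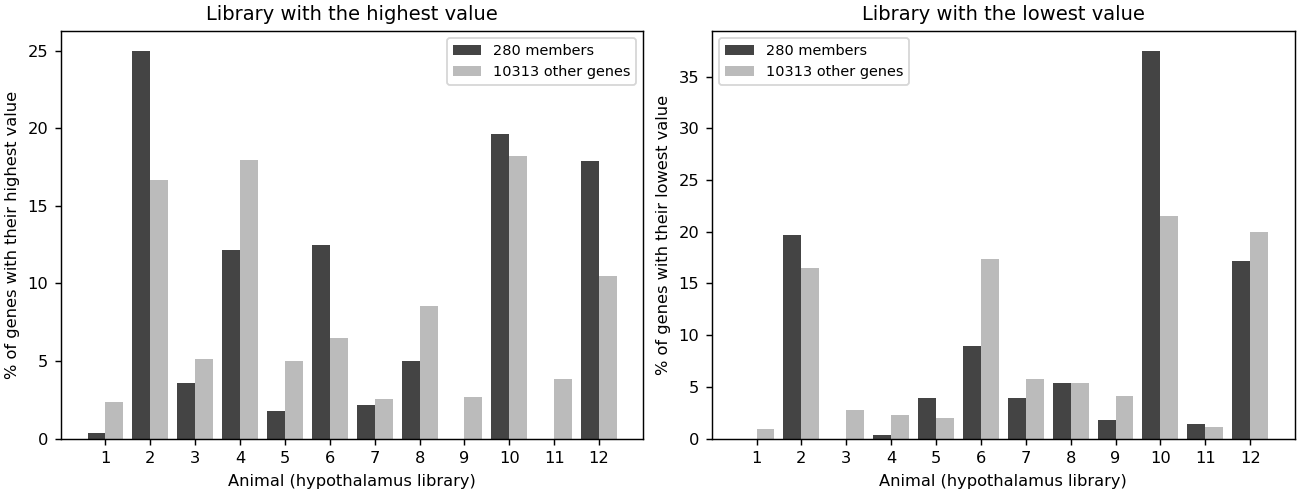
Percent of genes with their highest (left) or lowest (right) hypothalamus value in each animal's library, for the 280 members (dark) and for the 10313 other genes with a hypothalamus median of at least 10 CPM (light). Animal 10 was the lowest for 37.5% of members and 21.6% of other genes, and animal 2 the highest for 25% and 16.7%.

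The same libraries were also frequent extremes among the 10313 other genes at 10 CPM or more. Animal 10 was the highest for 18.2% and the lowest for 21.6% of these, animal 2 for 16.7% and 16.5%, and animal 12 for 10.5% and 20%. Membership depended on the outermost libraries. When the second highest was set over the second lowest library, 30 genes, all among the 280, reached a ratio of 5. Without the library of animal 10 the rule found 167 genes, 160 of them among the 280, and without that of animal 2 it found 187, 180 of them among the 280. For 47 members (16.8%) the highest library was at least 2 times the next, and animal 2 was that library for 30 of them. For 29 members (10.4%) the lowest library was at most 0.5 times the next, and animal 10 was that library for 15.

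The clearest single-library gene was ENSOARG00020014413. Its hypothalamus values were 17.7, 14.0, 18.3, 16.0, 16.9 and 19.8 CPM in active animals 1 to 6, and 18.8, 15.5, 14.9, 486, 20.2 and 20.8 CPM in inactive animals 7 to 12. Animal 10 thus stood 23.2 times above the next library, and the other 11 lay between 14.0 and 20.8 CPM. The pars tuberalis of the same animal held 15.9 CPM (12 animals, 13.35 to 22.9) and its pineal gland 12.9 CPM (12 animals, 10.55 to 18.7). The rise was seen in 1 library of that ram and in neither of its other tissues.

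ENSOARG00020021232 had the largest ratio, 43.7, and a different pattern. Its hypothalamus values were 16.8, 40.0, 30.3, 32.5, 34.0 and 59.99 CPM in animals 1 to 6 and 3.71, 111, 47.1, 2.45, 12.8 and 10.8 CPM in animals 7 to 12. Both the highest library (animal 8) and the lowest (animal 10) came from inactive rams, whose range enclosed that of the active rams. Its pars tuberalis values ran from 58.85 to 112 CPM and its pineal values from 31.4 to 64.6 CPM.

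**Figure D2:**
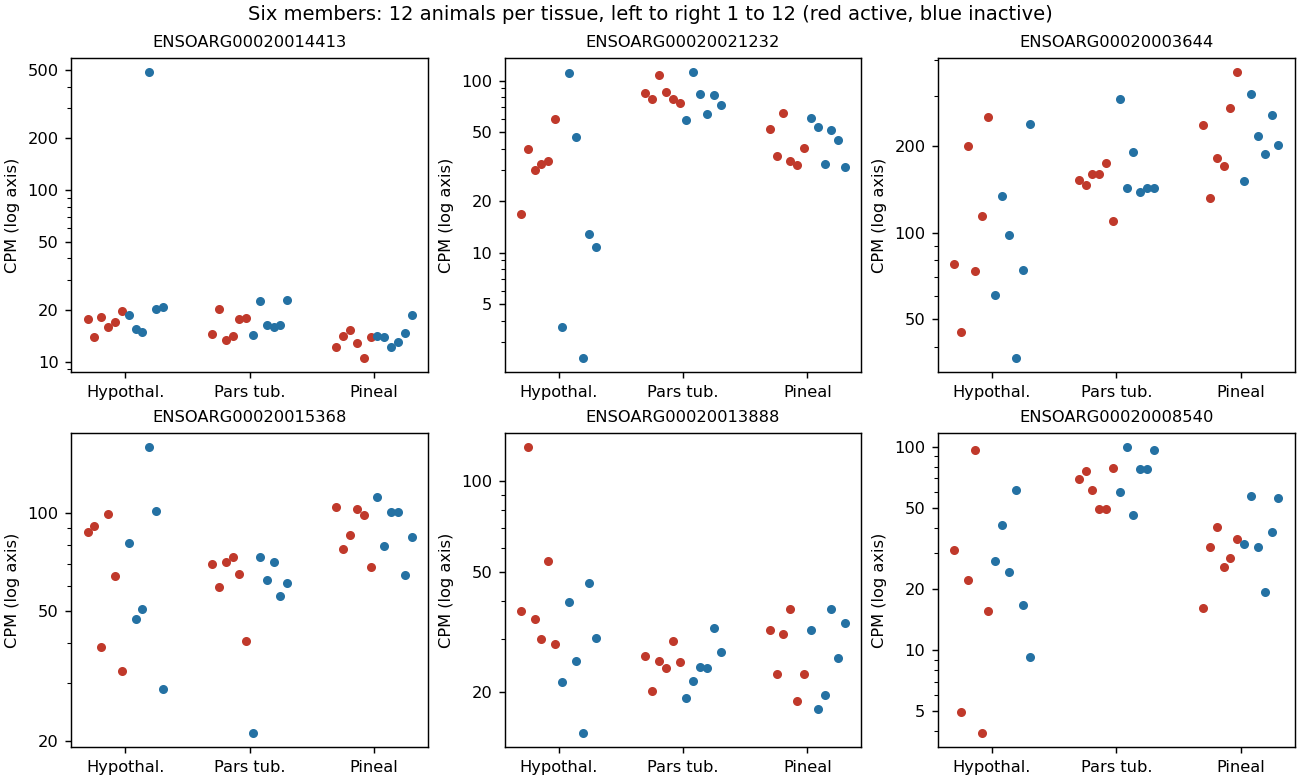
CPM (log axes) of 6 members in the 36 libraries, with animals 1 to 12 from left to right within each tissue, active rams in red and inactive rams in blue. ENSOARG00020014413 stands apart in 1 hypothalamus library at 486 CPM, with little spread in the others. ENSOARG00020013888 is highest in animal 2 (129 CPM) and ENSOARG00020008540 in animal 4 (96.6 CPM). The other 5 genes all vary among their remaining hypothalamus libraries as well.

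The members did not vary as 1 set. Over the 12 hypothalamus libraries the first 3 principal components held 47.6%, 24.8% and 10.9% of the members' variance on the log2 scale. For the 10313 other genes at 10 CPM or more they held 46.8%, 18.3% and 10.8%. Pairwise correlations of the members had a median of 0.03 over 39060 pairs, with 27.1% above 0.5 and 21.7% below -0.5. The same pairs had 22.3% above 0.5 and 18.5% below -0.5 in the pars tuberalis, and 15.6% and 13.6% in the pineal gland. Members were therefore grouped by the correlation of their hypothalamus values (average linkage, tree cut at 0.5). There were 5 groups of at least 10 members, which held 256 of the 280, and the other 24 fell into 8 smaller groups. Since the groups were formed on these values, their hypothalamus profiles are given without a test, and genes in the same library share its depth and its tissue block.

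**Figure D3:**
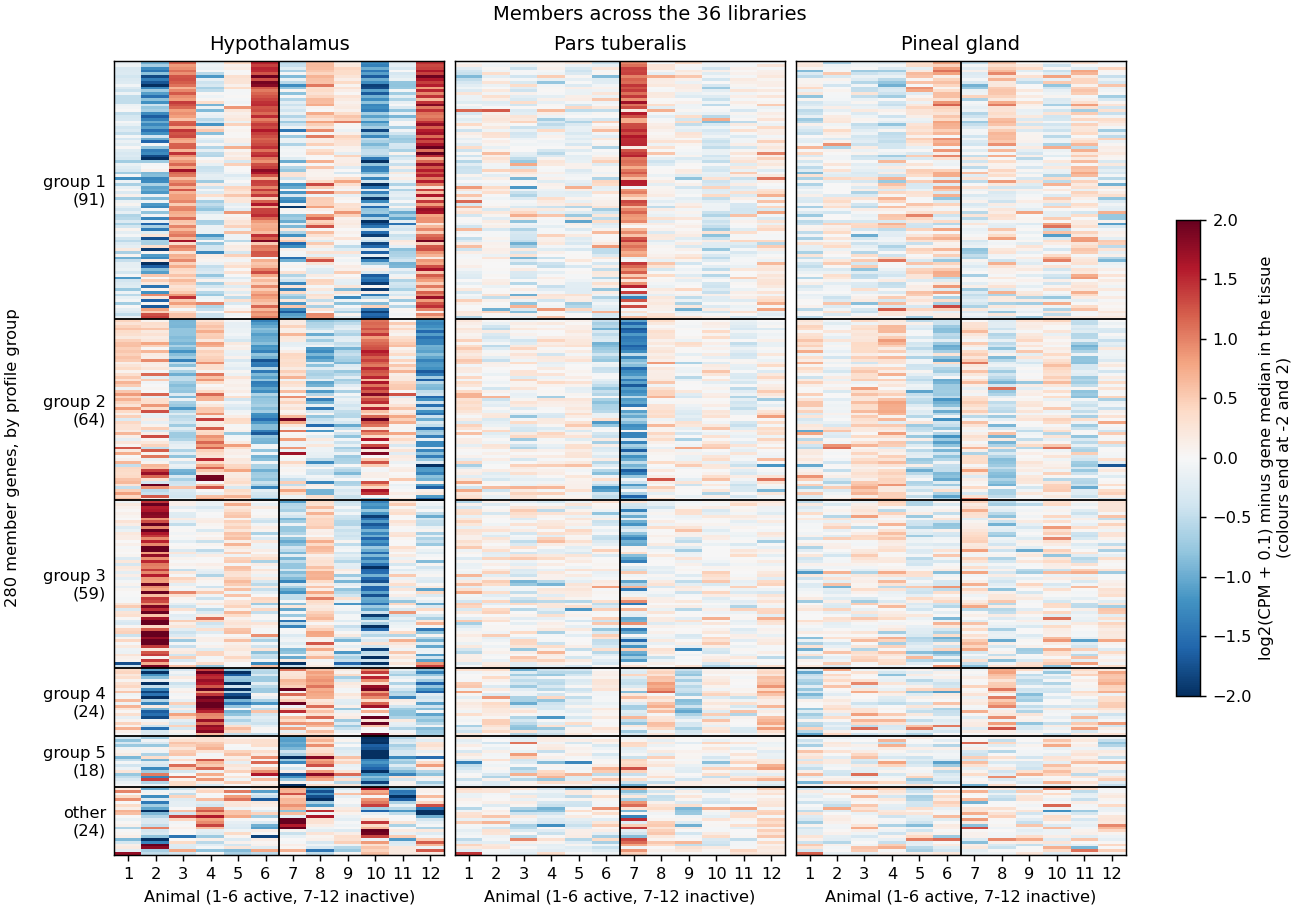
Each row is a member and each column an animal, with colour showing log2(CPM + 0.1) minus the gene's median in that tissue. Rows are ordered by profile group, with 91, 64, 59, 24 and 18 members in groups 1 to 5 and 24 others. Strong colours fill the hypothalamus columns of animals 2, 6, 10 and 12, and in the pars tuberalis they fall in the column of animal 7.

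Group 1 (91 members) was high in animals 12, 6 and 3 and low in animals 10 and 2. Its median level, as a multiple of each gene's hypothalamus median, was 2.32 in animal 12, 2.3 in animal 6, 1.81 in animal 3 and 1.27 in animal 8. It was 0.422 in animal 10, 0.515 in animal 2 and between 0.75 and 1.07 in the others. All 91 members lay above their median in animal 12, and 90 did so in animals 3 and 6. The member closest to the group's profile, ENSOARG00020003644, stood at 77.4, 44.9, 200.2, 73.6, 114, 254, 60.4, 134, 98.2, 36.6, 74.2 and 239 CPM in animals 1 to 12. The next closest, ENSOARG00020014231, ran from 25.5 CPM in animal 10 to 168 CPM in animal 6. Active and inactive rams stood at both ends of this order.

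Group 2 (64 members) was close to a mirror image of group 1. It stood at 2.21 times the median in animal 10 and 1.43 times in animal 4, and at 0.462 times in animal 12, 0.544 in animal 6 and 0.643 in animal 3. The correlation between the median profiles of groups 1 and 2 over the 12 hypothalamus libraries was -0.93. ENSOARG00020015368 gives the pattern, at 87.5, 91.2, 38.8, 99.7, 64.1, 32.8, 81.2, 47.4, 50.9, 160, 102 and 28.8 CPM in animals 1 to 12. ENSOARG00020011364, a lower-expressed member, ran from 3.95 CPM in animal 6 to 21.5 CPM in animal 10. Animal 2 separated the groups, since it was low for group 1 and near the median for group 2 (1.18 times).

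Library measures moved with groups 1 and 2. The 4 shallowest hypothalamus libraries were those of animals 6, 12, 3 and 8, at 19.25, 19.77, 21.65 and 22.66 in units of 1000000 counts, and these were the 4 with the highest level of group 1. The level of 32 genes restricted to the hypothalamus (a median of at least 20 CPM and at least 50 times that of both other tissues, a set chosen on these libraries) moved as well. It stood at 71.5%, 73.8%, 70.5% and 57.5% of the tissue median in the same 4 libraries, at 208% in animal 10, and between 98% and 153% in the other 7. Of these 32 genes, 4 to 9 exceeded their tissue median in those 4 libraries and 11 to 27 did so in the other 8, and 0 were at 0 counts in any hypothalamus library. Their part in the profiles was not tested.

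**Figure D4:**
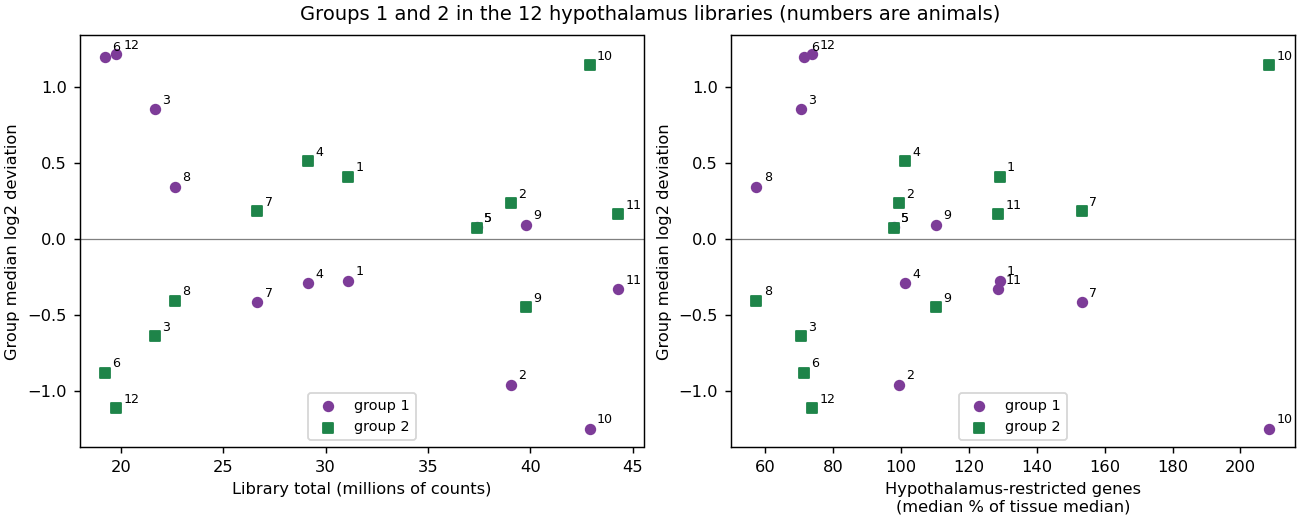
Median log2 deviation of groups 1 (circles) and 2 (squares) in each hypothalamus library, against library depth in units of 1000000 counts (left) and the level of the 32 hypothalamus-restricted genes (right), with animal numbers beside the points. Animals 3, 6, 8 and 12 have the shallowest libraries and the lowest restricted level, with group 1 above 0 and group 2 below 0.

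Group 3 (59 members) was led by animal 2. Its median level there was 2.67 times the hypothalamus median, and all 59 members lay above their own median. It was 0.454 in animal 10, 0.66 in animal 7 and between 0.814 and 1.31 in the other 9 libraries. Animal 2 was the highest library for 56 members and animal 10 the lowest for 44. ENSOARG00020013888 stood at 129 CPM in animal 2, 54.3 CPM in animal 5 and 14.7 CPM in animal 10, with the other 9 between 21.6 and 46.0 CPM. ENSOARG00020017644 stood at 91.7 CPM in animal 2, 43.6 CPM in animal 8 and 12.9 CPM in animal 10.

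Group 4 (24 members) was led by animal 4 at 3.07 times the median, with animal 10 at 1.91 and animal 8 at 1.64, and was lowest in animals 2 (0.457), 5 (0.584) and 12 (0.594). ENSOARG00020008540 spanned 3.93 CPM in animal 5 and 4.97 CPM in animal 2 to 61.3 CPM in animal 10 and 96.6 CPM in animal 4. ENSOARG00020007293 ran from 31.6 CPM in animal 2 to 170 CPM in animal 4. For 19 of the 24 members the pars tuberalis had the highest of the 3 tissue medians, and the median difference of pars tuberalis over hypothalamus was 1.04 on the log2 scale.

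The hypothalamus library of animal 4 held genes of the pars tuberalis. A set of 47 pars tuberalis-restricted genes, defined in the same way, stood there at 15.6% of the pars tuberalis level, against 0.142% to 1.78% in the other 11. Their summed level was 2929 CPM in animal 4 and 17.2 to 397 CPM in the others, and 1 of the 47 was at 0 in animal 4 against 0 to 9 elsewhere. In animal 4, 3 of the 47 exceeded their pars tuberalis median, against 0 in each other hypothalamus library. In the same library all 24 members of group 4 stood above their pars tuberalis median. Their median excess there over the hypothalamus median was 51.4 CPM. A 15.6% share of their pars tuberalis level had a median of 7.56 CPM, where 15.6% is a median over the 47 genes and not a level common to them. The part of the pars tuberalis-restricted signal in the group 4 profile was not tested.

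Group 5 (18 members) was low in animal 10, at 0.313 times the median, and in animal 7, at 0.519, and highest in animal 8, at 1.64. All 18 members lay below their median in animal 10. ENSOARG00020024204 stood at 3.89 CPM in animal 10 and 8.06 CPM in animal 7, and between 10.4 and 24.2 CPM in the other 10. ENSOARG00020003566 stood at 8.975 CPM in animal 10, 16.2 CPM in animal 7 and 55.8 CPM in animal 8. The pars tuberalis had the highest tissue median for 13 of the 18. The level of the hypothalamus-restricted genes ran the other way, with animals 10 and 7 the highest and animal 8 the lowest.

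The profiles were shared by genes outside the rule. Of the 10313 other genes at 10 CPM or more, 977 (9.47%) correlated above 0.8 with the median profile of group 1, and 236 of those had a ratio of at least 5. For group 2 there were 1745 (16.9%), for group 3 there were 471 (4.57%), for group 4 there were 48 (0.465%) and for group 5 there were 676 (6.55%). The median ratio of these genes was 2.43 to 3.2, below the limit of 5. For groups 2, 3, 4 and 5, 99, 69, 9 and 97 of them had a ratio of at least 5. Other limits of the rule kept out those with a ratio of at least 5. Many hypothalamus genes thus followed the profiles of groups 1, 2, 3 and 5, most of them over a smaller range than the members.

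Values in the other tissues did not enter the grouping, though the rule capped their range at 4. In the pars tuberalis, groups 1 and 2 differed most in 1 library, that of inactive animal 7. Group 1 stood there at 2.08 times its pars tuberalis median, with 85 of 91 members above it, and between 0.845 and 1.09 in the other 11 animals. Group 2 stood at 0.462 in animal 7, with 2 of 64 members above the median, and at 0.73 in animal 6, while the other 10 lay between 0.87 and 1.13. Group 3 stood at 0.731 in animal 7 and between 0.982 and 1.05 elsewhere. In ENSOARG00020003644 the pars tuberalis values were 293 CPM in animal 7 and 110 to 191 CPM in the other 11, and in ENSOARG00020015368 they were 21.1 CPM in animal 7 and 40.4 to 73.6 CPM in the others.

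The pars tuberalis library of animal 7 held 26.85 in units of 1000000 counts, with 3 of the 12 below it, and the part of depth in this pattern was not tested. In the hypothalamus of the same animal, group 1 was at 0.75 and group 2 at 1.14, the opposite direction. The label of variability in the hypothalamus alone therefore holds for the chosen limits (5 and 4), and groups 1 and 2 also moved below that ceiling, mainly in 1 pars tuberalis library. Within group 1 the median pairwise correlation in the pars tuberalis was 0.55, and it was 0.15 without animal 7. In group 2 it was 0.67 and 0.43. The correlation of the median profiles of groups 1 and 2 was -0.88 over the 12 pars tuberalis libraries and -0.27 without animal 7.

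In the pineal gland groups 1 and 2 also ran opposite to each other, over a smaller range. Group 1 was highest in animals 6 (1.32), 11 (1.21), 5 (1.17) and 8 (1.16), and group 2 was lowest in the same animals (0.624, 0.733, 0.809 and 0.71). The correlation of their median profiles was -0.98 over 12 libraries and stayed between -0.983 and -0.971 when any 1 library was left out. The depth of those 4 pineal libraries was 45.26, 32.0, 25.49 and 40.38 in units of 1000000 counts. The 3 deepest pineal libraries, of animals 1, 4 and 7 at 72.95, 57.13 and 48.63 in the same unit, stood low for group 1 (0.895, 0.872 and 0.883) and high for group 2 (1.13, 1.35 and 1.18). Of the 3 shallowest, animal 5 was high for group 1, as given above. The other 2, animals 9 and 2 at 25.24 and 26.14, stood at 0.997 and 0.998 for group 1 and at 1.05 and 0.962 for group 2. The part of depth in these profiles was not tested. Animals 6 and 8 lay on the same side in both tissues, whereas animals 3 and 12, high for group 1 in the hypothalamus, stood at 0.881 and 0.983 in the pineal gland. Within group 2 the median pairwise correlation in the pineal gland was 0.61, against 0.25 in group 1, 0.18 in group 3 and 0.03 over all members.

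Group 4 members also moved together outside the hypothalamus, with a median pairwise correlation of 0.56 over pars tuberalis and 0.42 over pineal libraries. Their animals differed by tissue. Animals 8 and 12 were high in both (pars tuberalis 1.34 and 1.33, pineal gland 1.43 and 1.28), while animal 4, the highest in the hypothalamus, stood at 0.769 and 0.947. Group 5 showed no shared pattern outside the hypothalamus, at -0.03 and 0.04, and its median level stayed between 0.91 and 1.06 in the pars tuberalis.

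**Figure D5:**
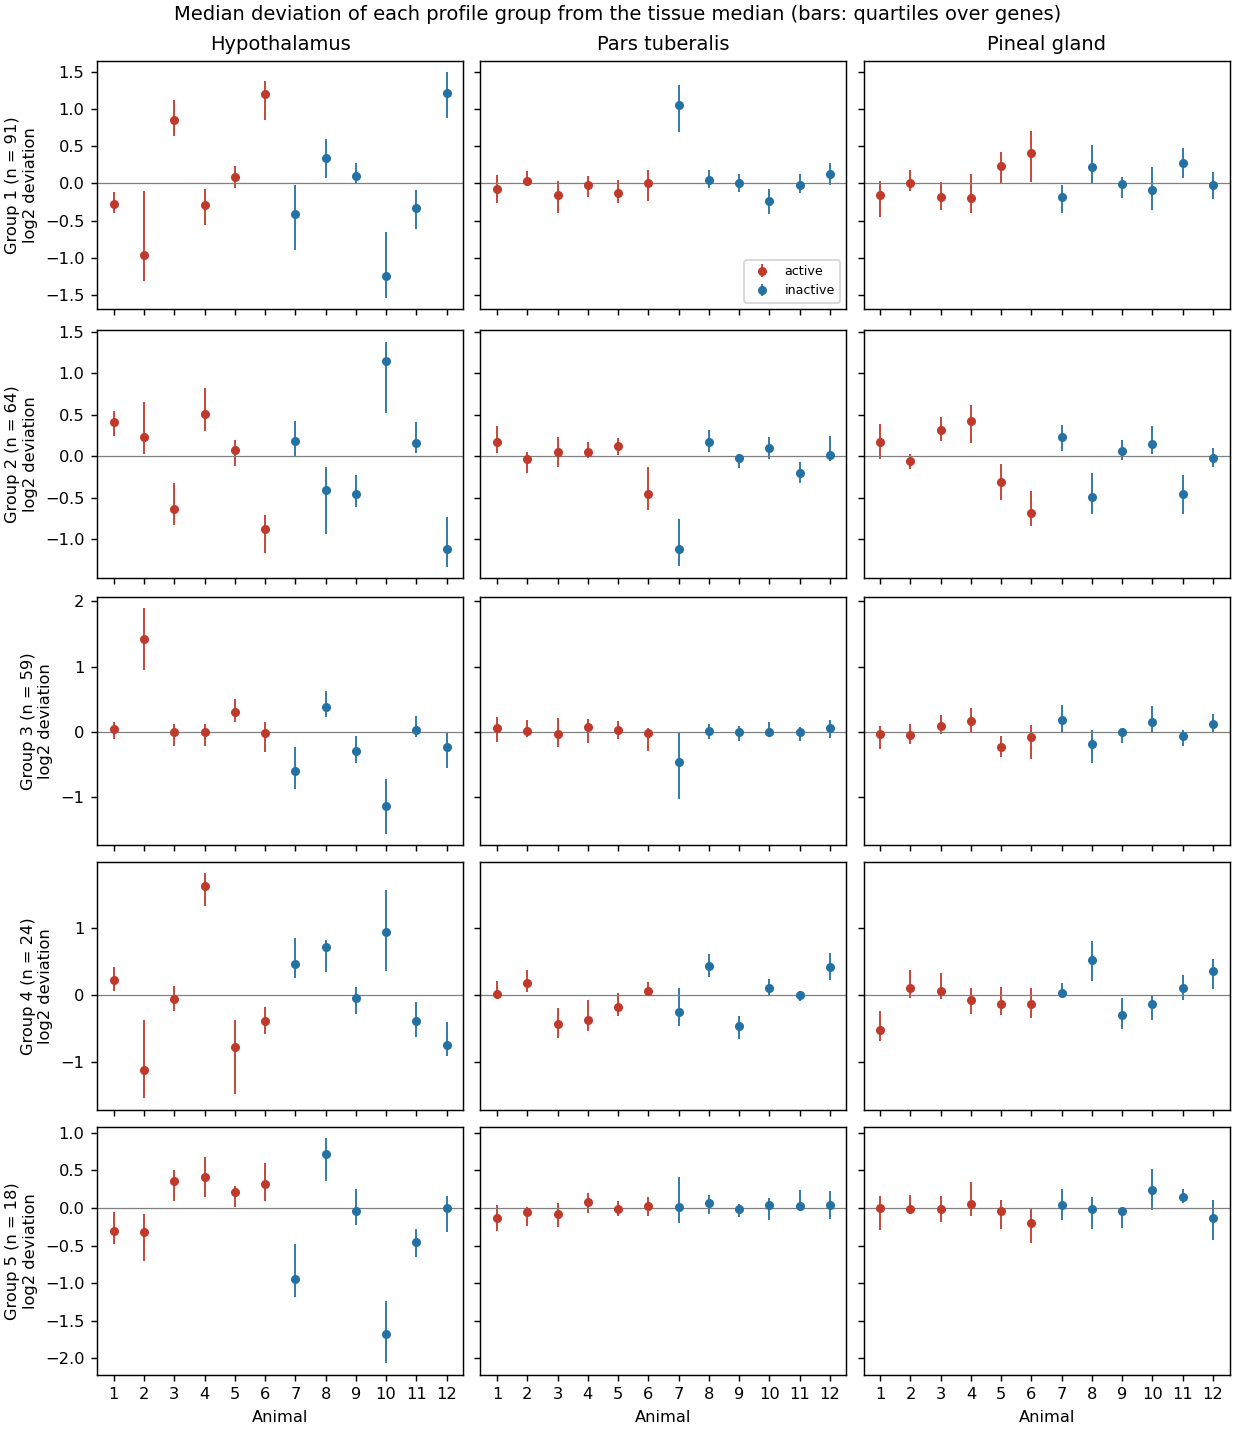
Median log2 deviation of the genes of each profile group (rows) from their tissue median in each animal, for the hypothalamus, pars tuberalis and pineal gland (columns), with bars for the quartiles over genes, active rams in red and inactive rams in blue. Groups 1 and 2 run opposite to each other over many hypothalamus and pineal libraries and, among pars tuberalis libraries, mainly in animal 7, while groups 3 and 5 vary mainly in the hypothalamus.

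The study asks which genes differ between active and inactive rams. The rule did not use state, although a wide range allows larger differences. Each tissue was fitted alone, because the members were chosen to vary more in the hypothalamus than elsewhere and a spread shared over tissues is too small for them there. In the hypothalamus, edgeR's quasi-likelihood test called 0 of 280 members and 0 of 15655 genes (0%) at an adjusted p (Benjamini-Hochberg) below 0.05. At an unadjusted p below 0.05 there were 15 members (5.36%), 10 higher and 5 lower in active rams, beside 711 of all genes (4.54%, of which 2.33% higher and 2.22% lower). The members' share is near that of all genes. No member had active and inactive rams fully apart (0 of 280, beside 0.0639% of all genes).

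The size of the state difference was larger for members, with a median absolute log2 difference of 0.337 against 0.156 over all genes, as a wide range allows. The most uniform direction lay in group 3, where 59 of 59 members had a higher mean in active rams (median log2 difference 0.58), beside 8175 of all 15655 genes. In that group 8 members had an unadjusted p below 0.05, beside 4.54% of all genes. The members share the same high library, active animal 2, and the same low one, inactive animal 10, so they are not 59 separate results. Without animal 2 the median was 0.20, 48 of 59 were higher and 0 had an unadjusted p below 0.05. Without animal 10 it was 0.46, 58 were higher and 1 had an unadjusted p below 0.05. With any 1 library left out that last count ran from 0 (without animal 2 or 7, beside 3.62% and 3.14% of all genes) to 21 (without animal 8, beside 7.71%). Group 5 had 17 of 18 members higher in active rams (median 0.31), and groups 1, 2 and 4 had medians of 0.10, -0.16 and -0.18. Without animal 10 the medians of groups 1 and 2 changed sign, to -0.06 and 0.21. Group 1 also fell below 0 without animal 3 (-0.08), 6 (-0.24), 7 (-1.02e-05) or 11 (-0.01). The median of group 5 ran from 0.14 (14 of 18 higher, without animal 10) to 0.55 (without animal 8), and that of group 4 from -0.02 (without animal 10) to -0.75 (without animal 4).

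Of the members that were lower in active rams, ENSOARG00020012548 had the lowest p. It stood at 48.0, 25.1, 15.8, 26.5, 45.6 and 12.2 CPM in animals 1 to 6 and at 39.4, 45.7, 55.3, 110, 62.4 and 42.0 CPM in animals 7 to 12. The means were 28.9 ± 14.9 and 59.2 ± 26.5 CPM (SD, n = 6 each), and active animals 1 and 5 lay within the inactive range. Its log2 difference was -1.11 (SE 0.337), with an unadjusted p of 0.00584 and an edgeR quasi-likelihood adjusted p of 0.999 (0.06 to 1 over the alternatives).

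Among members higher in active rams the lowest p was that of ENSOARG00020023499, of group 3. It stood at 77.5, 140, 72.4, 75.03, 116 and 67.2 CPM in active animals and at 40.7, 94.8, 50.6, 26.9, 71.8 and 42.9 CPM in inactive animals, with means of 91.4 ± 29.7 and 54.6 ± 24.6 CPM (SD, n = 6 each). The ranges overlap through animals 8 and 11. Its log2 difference was 0.70 (SE 0.277), with an edgeR quasi-likelihood adjusted p of 0.999 (0.146 to 1 over the alternatives).

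The spread assumed for the members changed their unadjusted count. In a fit of all 36 libraries with 1 spread per gene over the tissues, 67 of 280 members (23.9%) had an unadjusted p below 0.05 in the hypothalamus, beside 1565 of 16773 genes (9.33%). Of these 67, 51 were higher and 16 lower in active rams (5.74% and 3.59% of all genes), and 41 belonged to group 3. That fit called 16 genes after adjustment (0.0954%), 0 of them members. DESeq2 on the 12 hypothalamus libraries called 4 genes (0.0186%), 0 of them members, with 19 members at an unadjusted p below 0.05 (6.79%, beside 5.11% of all genes). Limma with voom over 36 libraries and the animal as a random block called 1 gene (0.00596%), not a member, and had 50 members below an unadjusted p of 0.05 (17.9%, beside 7.99% of all genes).

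For the pars tuberalis the edgeR test called 0 of 280 members and 0 of 15501 genes (0%). The rule capped the members' range in this tissue and set a floor on their hypothalamus median. Their shares below are therefore not like for like with those of all genes. At an unadjusted p below 0.05 there were 12 members (4.29%, 1 higher and 11 lower in active rams), beside 2.7% of all genes (0.819% higher and 1.88% lower). DESeq2 called 1 gene (0.00469%), not a member, and had 16 members below that value, beside 3.2% of all genes. The fit of all 36 libraries had 3 members below it, beside 3.54% of all genes. In 3 members the states did not overlap (1.07%, beside 0.0774% of all genes), all lower in active rams. These were picked out after their values were seen, and inactive animal 7 was the highest pars tuberalis library of each. ENSOARG00020011605 ran from 9.36 to 10.9 CPM (median 9.69) in active and from 11.4 to 20.6 CPM (median 12.6) in inactive rams, with a log2 difference of -0.54 (SE 0.194). ENSOARG00020021028 ran from 44.9 to 59.0 and from 60.8 to 151 CPM, and ENSOARG00020024908 from 14.6 to 17.0 and from 18.3 to 49.3 CPM. Without animal 7 the log2 differences were smaller, at -0.33 for ENSOARG00020011605, -0.21 for ENSOARG00020021028 (-0.60 with it) and -0.32 for ENSOARG00020024908 (-0.73 with it). The edgeR quasi-likelihood adjusted p of all 3 was 0.916 (0.644 to 1 over the alternatives).

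The direction in the pars tuberalis followed the profile groups. In group 1, 83 of 91 members were lower in active rams (median log2 difference -0.31), and in group 2, 53 of 64 were higher (0.12). Of all 15501 genes, 7961 were lower and 7540 higher. Both groups were apart in inactive animal 7. Their members share that library, so they are not 91 and 64 separate results. Without that library 6 of all 280 members (2.14%), not of groups 1 and 2 alone, had an unadjusted p below 0.05, near the 2.32% of all genes. Of the members that were higher in active rams, ENSOARG00020001432 had the lowest p, at 190 ± 20.3 CPM in active and 155 ± 38.1 CPM in inactive rams (SD, n = 6 each). Its range of 165 to 212 CPM in active rams overlapped that of 100.2 to 198 CPM in inactive rams. Its log2 difference was 0.30 (SE 0.136), with an edgeR quasi-likelihood adjusted p of 0.916 (0.644 to 1 over the alternatives).

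The rule capped the members' range in the pineal gland as well, so their shares and those of all genes are not like for like. For the pineal gland the edgeR test called 0 of 280 members and 0 of 15786 genes (0%), and 1 member (0.357%) had an unadjusted p below 0.05, lower in active rams, beside 1.69% of all genes (1.01% lower). DESeq2 called 0 genes (0%) and had 2 members below that value, beside 2.05% of all genes, and the fit of 36 libraries had 0, beside 1.94%. No member had the states fully apart there (0.038% of all genes). That 1 member was ENSOARG00020015252, of group 3, at 13.6 ± 3.22 CPM in active and 18.5 ± 4.09 CPM in inactive rams (SD, n = 6 each). The highest pineal value was 26.3 CPM in inactive animal 7, and the states overlapped. Its log2 difference was -0.43 (SE 0.184), with an edgeR quasi-likelihood adjusted p of 0.9998 (0.944 to 1 over the alternatives). In the hypothalamus the same gene stood at 174 CPM in animal 2, 55.8 CPM in animal 8 and 19.9 to 28.7 CPM in the other 10. ENSOARG00020010579, the lowest p among members higher in active rams, stood at 13.2 ± 3.7 and 10.3 ± 2.19 CPM, with a log2 difference of 0.35 (SE 0.182).

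The test of whether the state difference was equal in the 3 tissues called 0 of 280 members and 0 of 16773 genes (0%), with 13 members (4.64%) and 3.24% of all genes at an unadjusted p below 0.05. The rule caps the range in both other tissues, so unequal differences are partly built into the members. The fit also used 1 spread per gene over the tissues, which is too small for the members in the hypothalamus. It did not pair the libraries of a ram. With the animal as a block the unadjusted count was 5 members (1.79%), beside 2.03% of all genes, and the lowest p among members was that of ENSOARG00020012548 (0.000557, adjusted p 1 by edgeR). Without the block the lowest p was that of ENSOARG00020014413, whose hypothalamus difference rested on animal 10 (unadjusted p 0.00512, and 0.435 with the block). Also without the block, ENSOARG00020016429, of group 3, had the lowest p among members whose difference was more positive in the hypothalamus. It stood at 172 ± 46.8 and 117 ± 52.8 CPM there in active and inactive rams and at 75.5 ± 10.5 and 88.4 ± 10.5 CPM in the pars tuberalis (SD, n = 6 each). Its edgeR quasi-likelihood adjusted p was 1, without and with the block. With the block the lowest p in that direction was that of ENSOARG00020019970 (unadjusted p 0.00224 by edgeR).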

How the data were processed

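The authors deposited raw counts per Ensembl sheep gene ID for 36 libraries, as whole numbers that were not normalised. The submitters' processing notes name STAR 2.7.8a, edgeR, HTSeq and FastQC without saying what each did. Which genome build, annotation and strand setting were used, and whether molecular identifiers were collapsed, is not stated in the sources used here, so near-identical or overlapping genes are uncertain and counting noise is a lower limit. All columns matched 1 labelled sample each. Levels are counts divided by the library total and multiplied by 1000000.

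State was tested per tissue in R 4.3.3 with edgeR 4.0.16 (its default expression filter with a minimum count of 10, TMM scaling, robust quasi-likelihood fit), with Benjamini-Hochberg adjustment over all genes tested and a threshold of 0.05. The test of equal state differences used all 36 libraries. SE is the absolute log2 difference over the square root of F. The fits were tested on simulated data. DESeq2 1.42.0, limma 3.58.1 (voom, animals as a random block), another scaling, no filter and leaving out each library were alternatives. Profile groups used scipy 1.17.1.

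Libraries with 1 animal number come from 1 ram, per the labels, which pairs the tissues. Deviations from the group means correlated within animals at a median of 0.0412 (hypothalamus and pars tuberalis), 0.154 (hypothalamus and pineal gland) and 0.196 (pars tuberalis and pineal gland) over 13401 genes. Active and inactive rams are different animals, so a state comparison within a tissue has no such block. Rams are separate animals, 6 per group.

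The members, the groups and the restricted gene lists were chosen with earlier results of these data known. The marker and pathway lists, which are by symbol, were not used here, because 0 IDs matched a symbol. Genes named are the 2 with the largest hypothalamus ratio, the 2 closest to each group's median profile, and the lowest p in each direction per state comparison, except where stated.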

Additional observations from a re-analysis of the deposited data

Results flagged for a closer look

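In groups of 6 libraries, a value was listed here when its gap to the nearest other library exceeded 0.625 of the group's whole range (Dixon's criterion). Over 74 groups examined, 11 values met it. The groups share genes and libraries, and the hypothalamus groups of ENSOARG00020014413 were counted again among the 74. Chance gives about 1 in 20 for groups not chosen by their values, but many of these hold hypothalamus values that the rule or the grouping used, so the number is no test. In the hypothalamus of inactive rams, animal 10 stood apart for ENSOARG00020014413 (486 CPM, next 20.8) and ENSOARG00020012548 (110 CPM, next 62.4). In the hypothalamus of active rams, animal 2 stood apart for ENSOARG00020017644 (91.7 CPM, next 39.5), ENSOARG00020013888 (129 CPM, next 54.3) and the median of profile group 3 (2.67 times the tissue median, next 1.24).

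Animal 4 stood apart among active hypothalamus libraries for ENSOARG00020008540 (96.6 CPM, next 31.2), for the median of profile group 4 (3.07 times the tissue median, next 1.17) and for the level of pars tuberalis-restricted genes (15.6%, next 1.78%). Animal 7 stood apart among inactive pars tuberalis libraries for the medians of profile groups 1 (2.08 times the tissue median, next 1.09) and 3 (0.731, next 0.995), and among inactive pineal libraries for ENSOARG00020015252 (26.3 CPM, next 18.6).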

How the results depend on the processing

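The rule found 584 genes with a ratio of at least 4, 148 with at least 6, and 30 with the second highest over the second lowest library. It found 258 under TMM scaling (210 shared with the 280), and 167 to 285 with 1 hypothalamus library left out. TMM moved the median of all genes in the hypothalamus libraries of animals 4, 6 and 12 by over 0.1 on the log2 scale (from 0.12, -0.12 and -0.12 to -0.01, -0.01 and -0.01). The members' median in animal 10 was -0.55 by library totals and -0.47 under TMM. The first component held 48.7% of the members' variance under TMM and 43.6% to 58.4% with 1 library left out. No alternative called a member by state. Genes called in the hypothalamus numbered 16 with all 36 libraries, 4 by DESeq2 and 1 by voom with the animal as a replicate block, and DESeq2 called 1 in the pars tuberalis. In each tissue 0 genes and 0 members were called with any 1 library left out. Members at an unadjusted p below 0.05 in the hypothalamus numbered 67 with all 36 libraries and 50 by voom with that block, and ran from 3 (1.07%, beside 3.14% of all genes, without animal 7) to 33 (11.8%, beside 7.71%, without animal 8) with 1 library left out. In the pars tuberalis there were 3 with all 36 libraries and 6 (2.14%, beside 2.32% of all genes, without animal 7) to 23 (8.21%, beside 4.02%, without animal 9). In the pineal gland there were 0 with all 36 libraries, 2 by DESeq2 and 0 to 7 (2.5%, beside 3.47% of all genes, without animal 6). With the animal as a replicate block the interaction had 5, against 13 without it, and no call changed. The cause of these shifts was not tested. The 6 genes named in the state comparisons within tissues kept their direction in every alternative. Leaving out libraries to compare correlations outside the hypothalamus was chosen after seeing the data.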
